A study of Mus musculus with 6 samples.

Results

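The tumour suppressor p53, encoded by Trp53, and 9 genes that it is known to activate (Mdm2, Ccng1, Bax, Bbc3, Pmaip1, Trp53inp1, Zmat3, Phlda3 and Sesn1) were followed in cultured CD41+ bone marrow cells with and without Txnip. These 10 genes were chosen by symbol, and all 10 were found among the 24410 gene symbols of the table. RNA came from 3 libraries of Txnip -/- mice (KO 1 to KO 3) and 3 libraries of wild-type mice (WT 1 to WT 3), all C57BL/6 and 5 months old. Bone marrow cells depleted of mature lineages were cultured for 3 days with 10% serum, 100 ng/mL murine stem cell factor and 20 ng/mL thrombopoietin, and CD41+ cells were then sorted. The labels do not say how many mice a library holds or whether libraries of a genotype came from separate mice, so the p-values reflect only how far these samples spread, part of which may be technical.

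p53 is a transcription factor that is held low by the ubiquitin ligase Mdm2 and is stabilised as a protein after DNA damage and other stress, so its mRNA level is not a measure of its activity. Its targets slow the cell cycle, repair DNA, temper oxidants or start cell death through the mitochondria, and Mdm2 is itself a target that closes a feedback loop. Txnip, the thioredoxin-interacting protein, is known to bind p53 in blood-forming cells under oxidative stress. The comparison asks whether the transcripts of p53 and its targets differ between KO and WT libraries.

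Levels are FPKM (fragments for each kilobase of a transcript, scaled to a library's mapped fragments), and differences are KO minus WT on the log2(FPKM + 1) scale, which understates the change of low genes. Txnip was listed at 0, 0.04 and 0 FPKM in KO 1 to KO 3 and at 112, 228 and 143 FPKM in the WT libraries, so the libraries match their genotype labels. The column sums were 715205 to 805730 FPKM in the KO libraries and 720036 to 1131641 in the WT libraries. Rpph1 and Rmrp, short RNAs of RNase P and RNase MRP, held 30.4% of the sum of WT 2, the highest, and 10.7% to 20.6% of the other libraries. Libraries 1 and 2 of both genotypes held Y-linked transcripts such as Ddx3y (24.6 and 25.8 FPKM in KO, 22.8 and 41.7 in WT), while libraries 3 had Ddx3y listed at 0 and held Xist (91.6 FPKM in KO 3 and 48.1 in WT 3). The sorted marker gene Itga2b, which encodes CD41, lay at 92.8 to 152 FPKM in KO libraries and 83.2 to 111 in WT libraries. Of 8 lymphoid markers, 6 stayed under 1 FPKM everywhere, with Cd3e listed at 0 in every library. In bulk RNA, fewer cells of a type and less RNA per cell cannot be told apart.

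The region before the first transcribed base was examined for 7 of the 10 genes, with 10 start sites, in RefSeq windows on GRCm38.p6. The deposited values were made on mm9, so positions are given for the sequences alone. Each window of 250 bases was searched for the p53 half-site of 10 letters, which reads alike on both strands. An exact half-site stood before 5 of the 7 genes (Trp53, Mdm2, Ccng1, Bax and Sesn1), in 5 of their 10 windows, against 7.13% of all 32851 windows. A pair of half-sites with no gap, with the central C and G of each kept and at most 3 other letters off, stood before 4 genes (Trp53, Ccng1, Bbc3 and Sesn1). It lay in 4 of the 10 windows, against 1.14% of all windows. Where the pair holds an exact half-site, that one is counted in both. With at most 1 letter off, the pair stood before Ccng1 alone of the 7 genes, against 0.0578% of all windows. The search for pairs was added to the planned search for half-sites. The genes were chosen as p53 and its known targets, so these shares are no test of that. The 3 sequences shown are those of Ccng1 and Bbc3, targets whose highest levels were in the libraries numbered 2 of both genotypes, and of Trp53, whose lowest levels were there. Each is written 5′ to 3′ on the strand of its gene, and capitals mark the pair of half-sites.
Ccng1: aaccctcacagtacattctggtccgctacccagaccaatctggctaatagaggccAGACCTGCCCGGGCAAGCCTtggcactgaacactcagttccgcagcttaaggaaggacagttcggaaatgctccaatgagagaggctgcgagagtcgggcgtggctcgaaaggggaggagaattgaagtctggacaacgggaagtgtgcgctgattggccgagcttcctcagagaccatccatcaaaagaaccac
Bbc3: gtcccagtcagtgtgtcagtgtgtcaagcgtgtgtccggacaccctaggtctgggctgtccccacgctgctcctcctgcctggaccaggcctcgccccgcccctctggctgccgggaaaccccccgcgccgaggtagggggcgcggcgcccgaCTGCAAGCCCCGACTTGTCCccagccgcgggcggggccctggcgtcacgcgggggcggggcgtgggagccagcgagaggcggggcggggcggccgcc
Trp53: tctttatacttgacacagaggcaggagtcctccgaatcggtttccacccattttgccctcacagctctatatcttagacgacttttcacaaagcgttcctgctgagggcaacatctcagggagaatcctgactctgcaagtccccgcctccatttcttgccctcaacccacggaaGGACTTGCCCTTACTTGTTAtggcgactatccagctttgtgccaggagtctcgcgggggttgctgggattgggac
The Ccng1 sequence is chr11:40755287-40755536 (minus strand), with the pair at 195 to 176 bases before the start and 1 letter off. The Bbc3 sequence is chr7:16309333-16309582 (plus strand), with the pair 97 to 78 bases before the start and 3 letters off. In the Trp53 sequence, chr11:69580109-69580358 (plus strand), the pair lies 75 to 56 bases before the start with 3 letters off. Matching letters describe these windows and do not show that p53 binds there.

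By genotype, none of the 10 genes passed the test. At an adjusted p of 0.05 over the 11249 genes tested, limma called 0 of the 10 without the replicate number in the model and 0 with it, against 0.0178% and 0.0267% of all tested genes. At an unadjusted p under 0.05 it gave 0 of the 10 without the number, against 0.676% of all genes, and 2 with it (Trp53 and Phlda3), against 6.93%. All 10 genes reached the filter of 1 FPKM in 3 libraries. Differences were above 0 for 7 genes and below 0 for 3, against 63.4% of all tested genes above 0, with a median of 0.21 beside a median of 0.06 over all tested genes. That median moved with single libraries. It was −0.060 without KO 2 (5 genes above 0), −0.017 without WT 3 (4 above 0) and 0.063 without WT 1 (6 above 0). All tested genes had medians of 0.11, 0.06 and 0.13 there. The median of the 10 was 0.19 without KO 1, 0.29 without WT 2 and 0.27 without KO 3, beside 0.0096, 0.0075 and 0.069. Leaving out 1 library also unbalances the replicate numbers. With both libraries of number 1, 2 or 3 left out and the number as a block, it was 0.16, 0.16 and 0.19. All tested genes were then at 0.069, 0.048 and 0.071. Values were higher in KO in all 3 pairs of the same number for 4 genes (Mdm2, Bax, Pmaip1 and Phlda3), against 20.4% of all tested genes, and lower in all 3 for Trp53, against 8.68%.

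**Figure D1:**
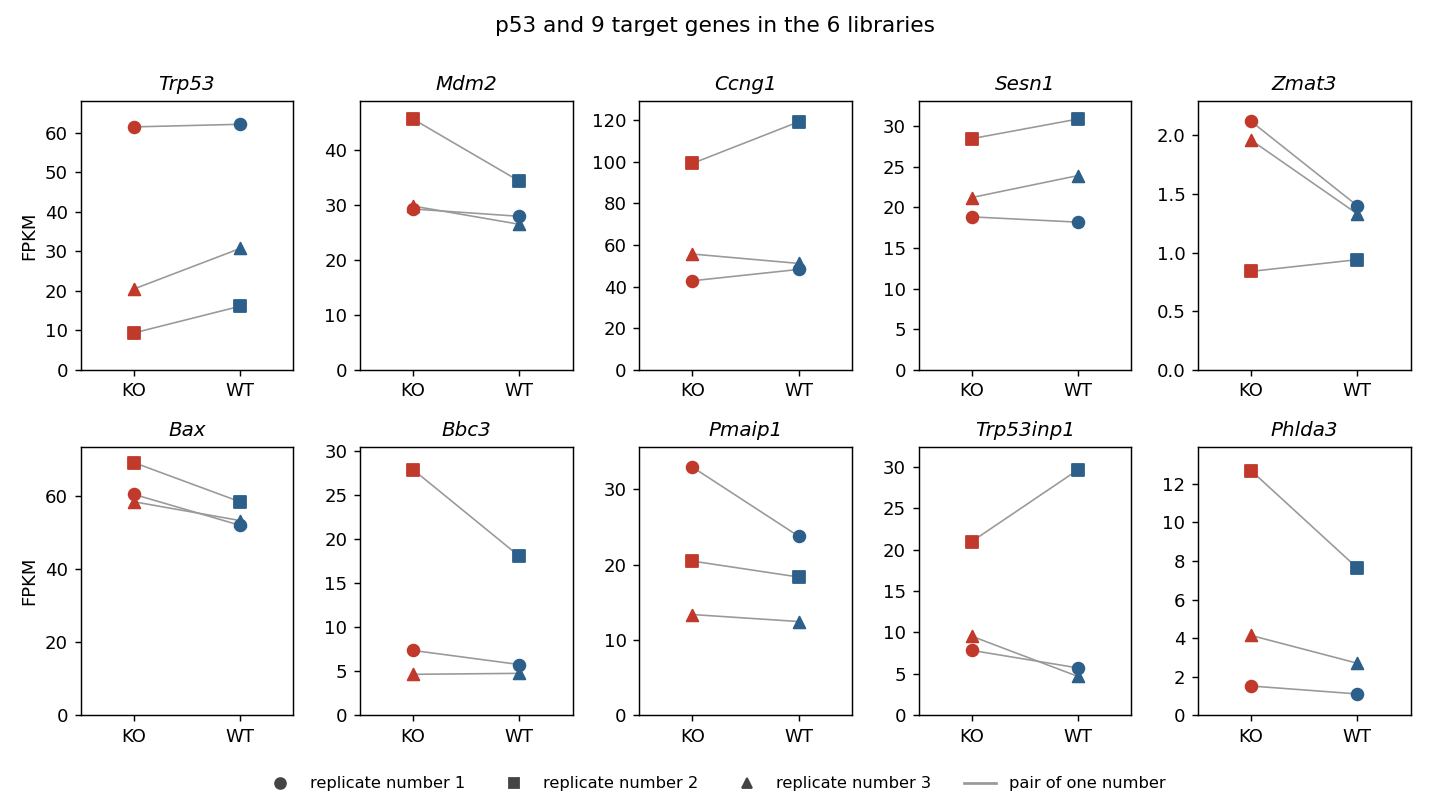
FPKM (linear axis from 0) of the 10 genes in the 3 KO libraries (left, red) and the 3 WT libraries (right, blue), 1 point per library, with the marker giving the replicate number and a line joining libraries of the same number. In Bbc3, Ccng1, Trp53inp1, Phlda3, Mdm2 and Sesn1 both libraries numbered 2 lie above the other 4, and in Trp53 and Zmat3 they lie below them.

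Trp53 itself was at 61.4, 9.32 and 20.4 FPKM in KO 1 to KO 3 and at 62.1, 16.1 and 30.7 FPKM in WT 1 to WT 3. The groups overlapped, with both libraries numbered 1 high and both numbered 2 low. The KO library was at 0.99, 0.58 and 0.67 times its WT partner in pairs 1 to 3. The difference was −0.44 (SE 0.66, 95% interval −1.93 to 1.06; limma, adjusted p = 1.00), and with the number as a block the interval was −0.81 to −0.06 (limma, adjusted p = 0.683). Without WT 1 the difference turned to 0.04, and without KO 2 to 0.17, which unbalances the numbers. With the block and without pair 1, 2 or 3 it was −0.65, −0.29 and −0.37.

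Mdm2, the ubiquitin ligase that degrades p53, was at 29.3, 45.6 and 29.8 FPKM in KO 1 to KO 3 and at 27.9, 34.3 and 26.5 FPKM in WT 1 to WT 3. The highest value was that of KO 2, and WT 2 lay above KO 1 and KO 3. The difference was 0.21 (SE 0.24, 95% interval −0.33 to 0.75; limma, adjusted p = 1.00), higher in 3 of 3 pairs.

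Among targets tied to the cell cycle and to stress tolerance, Ccng1 encodes cyclin G1, which acts with Mdm2 in feedback on p53. It was at 42.8, 99.3 and 55.7 FPKM in KO 1 to KO 3 and at 48.3, 119 and 51.2 FPKM in WT 1 to WT 3. The libraries numbered 2 lay above all others in both genotypes, and KO lay above WT in 1 of 3 pairs. Sesn1, a sestrin that limits oxidants and growth signalling through mTOR, was at 18.8, 28.4 and 21.2 FPKM in KO 1 to KO 3 and at 18.2, 30.9 and 23.9 FPKM in WT 1 to WT 3. The differences of Ccng1 (−0.10, SE 0.41) and Sesn1 (−0.08, SE 0.26) did not pass and turned to 0.07 and 0.09 when libraries were rescaled to a common sum. That rescaling moved the median of all tested genes to 0.22. Zmat3, a zinc finger protein that binds RNA and restrains growth, was low throughout, at 2.12, 0.84 and 1.96 FPKM in KO 1 to KO 3 and at 1.40, 0.94 and 1.33 FPKM in WT 1 to WT 3. Its lowest values were those of KO 2 and WT 2, and the groups overlapped through KO 2 alone. Its difference was 0.22 (SE 0.30; limma, adjusted p = 1.00).

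Bax, the pore-forming effector of mitochondrial cell death, varied least. It was at 60.3, 69.0 and 58.31 FPKM in KO 1 to KO 3 and at 51.9, 58.29 and 53.2 FPKM in WT 1 to WT 3. This was the 1 gene of the 10 whose KO libraries all lay above all WT libraries, against 3.32% of all tested genes, and the nearest libraries, KO 3 and WT 2, almost met. The difference was 0.19 (SE 0.19, 95% interval −0.23 to 0.62; limma, adjusted p = 1.00), and the two-sided exact permutation test gave p = 0.1, the smallest that 3 against 3 allows.

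Bbc3 and Pmaip1 encode Puma and Noxa, BH3-only proteins that free Bax and its relatives to act. Bbc3 was at 7.37, 27.9 and 4.66 FPKM in KO 1 to KO 3 and at 5.77, 18.1 and 4.77 FPKM in WT 1 to WT 3. Both libraries numbered 2 stood far above the other 4, and KO 2 was 1.54 times WT 2. Pmaip1 was at 33.0, 20.5 and 13.4 FPKM in KO 1 to KO 3 and at 23.8, 18.4 and 12.5 FPKM in WT 1 to WT 3. Its order was by number, with libraries 1 highest and libraries 3 lowest in both genotypes, and KO was above WT within each number. The differences were 0.29 (SE 0.64) for Bbc3 and 0.23 (SE 0.35) for Pmaip1 (limma, adjusted p = 1.00 for both).

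Trp53inp1, a nuclear protein that promotes p53-dependent arrest and autophagy, was at 7.84, 20.97 and 9.55 FPKM in KO 1 to KO 3 and at 5.72, 29.6 and 4.69 FPKM in WT 1 to WT 3. The highest libraries were WT 2 and KO 2, and the KO library was at 1.37, 0.71 and 2.04 times its WT partner in pairs 1 to 3. Phlda3, a lipid-binding repressor of Akt, was at 1.52, 12.7 and 4.14 FPKM in KO 1 to KO 3 and at 1.11, 7.63 and 2.7 FPKM in WT 1 to WT 3. Of the 10 genes it spanned the widest range, 11.4-fold from WT 1 to KO 2, and within each number KO was above WT, by 1.37, 1.66 and 1.53 times. Its difference was 0.47 (SE 0.66, 95% interval −1.05 to 1.98; limma, adjusted p = 1.00), and with the block the interval was 0.06 to 0.87 (limma, adjusted p = 0.683). After quantile normalization, with the block, the difference of Phlda3 was 0.30 (limma, adjusted p = 0.954), with an unadjusted p no longer under 0.05. The difference of Trp53inp1 was 0.27 (SE 0.62; limma, adjusted p = 1.00).

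**Figure D2:**
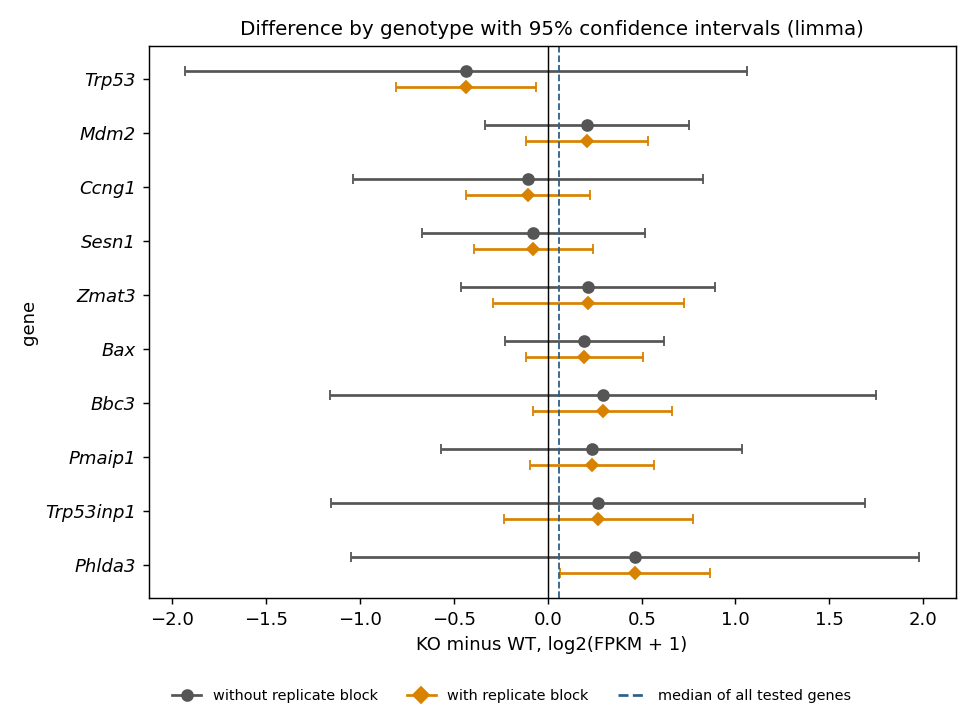
KO minus WT differences on the log2(FPKM + 1) scale for the 10 genes, with 95% confidence intervals from limma without (grey circles) and with (orange diamonds) the replicate number as a block, and the median of all tested genes, 0.06, as a dashed line. The blocked intervals of Trp53 and Phlda3 leave out 0 before adjustment, and no gene passed after adjustment over all 11249 genes.

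Between replicate numbers, most of the 10 genes differed in the filtered fit. An F test over the 3 numbers in the blocked fit, added after the values were seen, called 7 of the 10 (Trp53, Ccng1, Bbc3, Pmaip1, Trp53inp1, Phlda3 and Sesn1), against 35.1% of all tested genes. With no filter on low values it called 0 of the 10, against 0.088% of all genes. In the filtered fit, 5 of the 10 passed and were highest in number 2 (Ccng1, Bbc3, Trp53inp1, Phlda3 and Sesn1), against 10.5% of all tested genes. Trp53 was the 1 of the 10 that passed and was lowest in number 2, against 20.4% of all tested genes. Over numbers 1, 2 and 3, Trp53 averaged 61.8, 12.7 and 25.6 FPKM (limma F test, adjusted p = 0.000987). Bbc3 averaged 6.57, 23.0 and 4.72 FPKM (adjusted p = 0.000997 by the same limma test). For Ccng1 the averages were 45.6, 109 and 53.4 FPKM (limma, adjusted p = 0.00235), and for Phlda3 1.32, 10.2 and 3.42 FPKM (limma, adjusted p = 0.000998). The averages of number 2 over those of numbers 1 and 3 together were 4.29 for Phlda3, 4.07 for Bbc3, 3.64 for Trp53inp1, 2.21 for Ccng1 and 0.29 for Trp53. Mdm2 had a ratio of 1.41 and an adjusted p of 0.0861 (limma F test), and Bax and Zmat3 did not pass either (limma F test, adjusted p = 0.585 and 0.250).

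The replicate number took a median of 91.3% of the sum of squares over the 10 genes, beside 73.5% over all tested genes. Its share ran from 42.2% in Bax to 96.9% in Ccng1. Genotype took 54.7% in Bax, 17.0% in Mdm2, 14.6% in Zmat3 and at most 6.59% in the other 7. Without the libraries numbered 2 in both genotypes, 3 of the 10 genes still differed between the numbers (Trp53, Pmaip1 and Phlda3), against 35% of all tested genes in that fit.

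**Figure D3:**
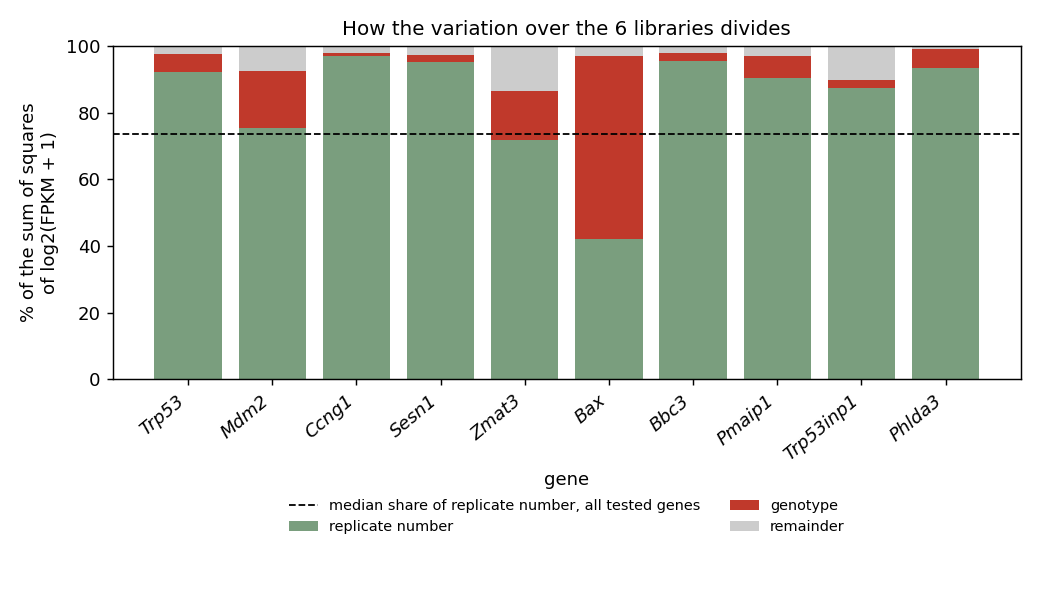
Share of the sum of squares of log2(FPKM + 1) over the 6 libraries taken by replicate number, genotype and the remainder, as stacked bars from 0 to 100% for the 10 genes, with the median share of replicate number over all tested genes, 73.5%, as a dashed line. Bax is the gene with the largest genotype share, 54.7%.

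Some marker sums were also ordered by number and others were not. The summed level of 12 megakaryocyte markers was 826, 1976 and 1103 FPKM in KO 1 to KO 3 and 810, 1790 and 1491 FPKM in WT 1 to WT 3. That order was set by Pf4, platelet factor 4, at 476, 1545 and 772 FPKM in KO libraries and 465, 1435 and 1129 FPKM in WT libraries. The other 11 summed to 349, 431 and 331 FPKM in KO libraries and to 345, 355 and 362 FPKM in WT libraries, highest in KO 2 and WT 3, and Itgb3, an integrin chain, was lowest in libraries 2 (25.9 FPKM in KO 2 and 25.4 in WT 2). The 12 immediate early genes summed to 730, 314 and 240 FPKM in KO 1 to KO 3 and to 435, 269 and 221 FPKM in WT 1 to WT 3, highest in libraries 1. The 10 mast cell and basophil markers summed to 1479, 1114 and 679 FPKM in KO libraries and to 1628, 1162 and 1088 FPKM in WT libraries. The 10 granulocyte-monocyte markers summed to 5093, 5705 and 10351 FPKM in KO libraries and to 6513, 8625 and 8869 FPKM in WT libraries. In every library that sum was above the sum of the 12 megakaryocyte markers, so the sorted cells also carried transcripts of other lineages. The 11 markers of monocytes and macrophages summed to 1136, 521 and 557 FPKM in KO libraries and to 515, 461 and 611 FPKM in WT libraries, with KO 1 standing apart. The 9 erythroid markers, with Slc4a1 and Alas2 under 1 FPKM everywhere, summed to 94.1, 131 and 159 FPKM in KO libraries and to 141, 201 and 154 FPKM in WT libraries. Of the 8 lymphoid markers, Nkg7, a granule protein of cytotoxic lymphocytes, made up nearly the whole sum, at 75.9, 80.6 and 97.7 FPKM in KO libraries and at 93.7, 113 and 88.1 FPKM in WT libraries, and the other 7 summed to at most 1.64 FPKM in any library. Whether cell make-up, sex, handling or RNA quality has a part in the differences between numbers was not tested, and for number 3 sex and number cannot be told apart.

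Genes with the closest patterns over the 6 libraries were sought for the pair of members with the widest range, by the root mean square difference of centred log2(FPKM + 1) values. Phlda3 lay closest to Angptl6, an angiopoietin-like factor (0.17), Sytl1, a synaptotagmin-like protein (0.21), and H2-Ob, a chain of the class II-like molecule H2-O (0.22). Angptl6 was at 0.58, 10.3 and 2.60 FPKM in KO 1 to KO 3 and at 0.86, 5.98 and 1.53 FPKM in WT 1 to WT 3. Trp53 lay closest to Sf3b4, a splicing factor (0.17), Gar1, a protein of H/ACA small nucleolar particles (0.21), and Anp32b, a histone chaperone (0.22). Sf3b4 was at 29.7, 6.03 and 12.3 FPKM in KO 1 to KO 3 and at 30.2, 8.93 and 18.6 FPKM in WT 1 to WT 3.

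Further genes of the pathway did not pass by genotype. In 4 lists of other p53 targets, 61 of 63 symbols were in the table and 59 were tested. Limma called 0 of the 59 without the block and 0 with it, against 0.0178% and 0.0267% of all tested genes. At an unadjusted p under 0.05 it gave 0 without the block and 9 with it, against 0.676% and 6.93% of all tested genes. With the block, 8 of the 59 were under that p and higher, against 4.66% of all tested genes. The 1 of the 59 that was under it and lower stands against 2.28%. Targets of cell cycle arrest and feedback were higher in KO for 14 of 15, against 63.4% of all tested genes, with a median of 0.21 and medians of 0.41, 0.26 and 0.25 in pairs 1 to 3, beside 0.06 over all tested genes. In that list 5 had an unadjusted p under 0.05 with the block, all higher, against the 4.66% of all tested genes. The median of the list was 0.05 without KO 1, 0.13 without WT 3, 0.44 without KO 3 and 0.31 without WT 2. All tested genes had medians of 0.0096, 0.060, 0.069 and 0.0075 there. With the block and pair 1, 2 or 3 left out, the list was at 0.14, 0.33 and 0.29, beside 0.069, 0.048 and 0.071. KO 1 was also the library with the highest summed immediate early genes, 730 FPKM, and the part of these in the list's median was not tested. Cdkn1a, which encodes the cyclin-dependent kinase inhibitor p21, was at 30.5, 12.6 and 12.4 FPKM in KO 1 to KO 3 and at 16.9, 14.1 and 7.26 FPKM in WT 1 to WT 3, a difference of 0.45 (SE 0.41; limma, adjusted p = 1.00; 0.717 with the block). Its highest value was that of KO 1. Plk2, a polo-like kinase, was at 8.91, 6.91 and 2.93 FPKM in KO libraries and at 4.76, 4.56 and 1.84 FPKM in WT libraries, higher in 3 of 3 pairs (limma with the block, adjusted p = 0.637). The stress sensors Gadd45b and Gadd45g averaged 16.7 ± 5.91 and 6.06 ± 2.02 FPKM in KO and 11.9 ± 2.50 and 3.98 ± 1.24 FPKM in WT (SD, n = 3 each).

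The splits of the other lists are read against the 63.4% of all tested genes above 0. Their medians with 1 library left out are read against those of all tested genes. These were 0.0096 without KO 1, 0.11 without KO 2, 0.13 without WT 1 and 0.060 without WT 3. Targets tied to cell death split 10 higher to 9 lower, with a median of 0.03 that ran from −0.043 without KO 1 to 0.14 without WT 1. Casp6, an executioner caspase, averaged 10.0 ± 2.64 FPKM in KO and 7.33 ± 2.24 in WT, and Pidd1, which assembles the caspase 2 platform, 4.31 ± 2.66 in KO and 2.58 ± 1.71 in WT (SD, n = 3 each). Tnfrsf1a, a receptor of tumour necrosis factor, averaged 29.5 ± 3.63 FPKM in KO and 24.6 ± 6.51 in WT (SD, n = 3 each). Genes of DNA repair and nucleotide supply split 6 to 4 (median 0.11), with a median of −0.076 without KO 2, −0.032 without WT 1 and 0.0017 without WT 3. Among them Ercc5, an excision repair nuclease, was at 5.22, 8.62 and 5.11 FPKM in KO libraries and at 4.45, 4.83 and 3.67 FPKM in WT libraries. All its KO libraries lay above all WT libraries, against 3.32% of all tested genes. It was named as 1 of the 3 of smallest p in its list (limma, unadjusted p = 0.144). Pcna, the sliding clamp of DNA replication, averaged 296 ± 33.2 FPKM in KO and 355 ± 26.2 in WT (SD, n = 3 each), with all KO libraries below all WT libraries, against 1.03% of all tested genes. Polk, a translesion polymerase, averaged 8.33 ± 1.17 FPKM in KO and 6.63 ± 1.75 in WT (SD, n = 3 each). Targets in metabolism and redox control split 10 to 5 (median 0.13, and 0.23 without KO 1). Of the sestrin relatives of Sesn1 among them, Sesn2 averaged 11.6 ± 3.79 FPKM in KO and 9.22 ± 2.84 in WT, and Sesn3 7.44 ± 0.42 in KO and 5.80 ± 0.63 in WT (SD, n = 3 each). Lpin1, a phosphatidate phosphatase, averaged 5.24 ± 1.65 FPKM in KO and 4.16 ± 1.08 in WT (SD, n = 3 each).

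Regulators of p53 were higher in 14 of 21 tested and lower in 7, with a median of 0.06 that ran from −0.037 without KO 1 to 0.21 without WT 1. Mdm4, the partner of Mdm2 in restraining p53, was at 45.8, 24.4 and 26.3 FPKM in KO 1 to KO 3 and at 33.9, 24.1 and 21.3 FPKM in WT 1 to WT 3, a difference of 0.24 (SE 0.29; limma, adjusted p = 1.00). Trp53bp1, a damage-signalling partner of p53, averaged 11.1 ± 0.42 FPKM in KO and 9.50 ± 0.51 in WT (SD, n = 3 each). Its KO libraries all lay above all WT libraries, against 3.32% of all tested genes. It too was named as 1 of the 3 of smallest p in its list (limma, unadjusted p = 0.350). The checkpoint kinase gene Chek1 averaged 11.9 ± 2.14 FPKM in KO and 14.6 ± 0.43 in WT, and the chaperone gene Daxx 20.4 ± 2.29 in KO and 17.4 ± 3.32 in WT (SD, n = 3 each). Genes known to be lowered through p21 and the DREAM repressor complex, mostly of mitosis, split 12 higher to 8 lower (median 0.06, from −0.018 without KO 2 to 0.14 without KO 1). The gene of smallest p in that list was Chek1, which both lists hold, with a difference of −0.29 (SE 0.22; limma, adjusted p = 1.00). Next to it, Kif23, a cytokinesis motor, averaged 27.0 ± 4.05 FPKM in KO and 23.3 ± 3.23 in WT, and the phosphatase gene Cdc25c 13.6 ± 4.31 in KO and 11.1 ± 2.06 in WT (SD, n = 3 each). For regulators and for this list limma called 0 by genotype without and with the block, against 0.0178% and 0.0267% of all tested genes. At an unadjusted p under 0.05 it also gave 0 without and with the block, against 0.676% and 6.93%. With so few genes in each list, such shares leave room for few or none.

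**Figure D4:**
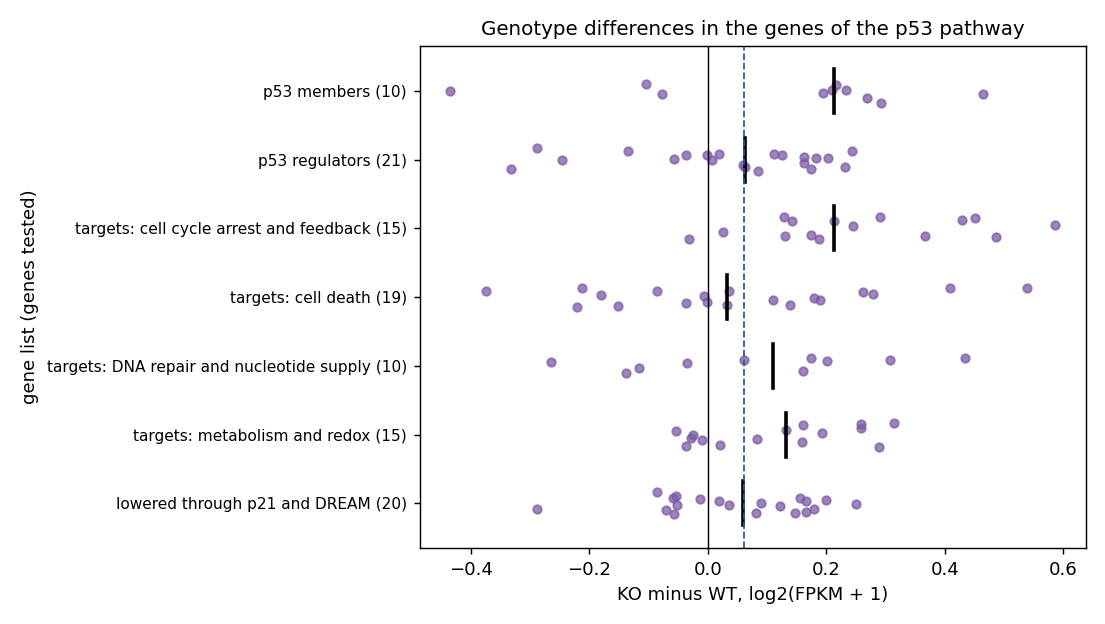
KO minus WT differences on the log2(FPKM + 1) scale for the 10 genes (top row) and the tested genes of 6 further lists of the p53 pathway, 1 point per gene, spread vertically at random within a row, with the median of each row as a black bar. The dashed line is the median of all tested genes, 0.06, and the arrest and feedback list has 14 of 15 points above 0, against 63.4% of all tested genes.

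Between replicate numbers, 25 of the 59 other targets differed (42.4%, limma F test), against 35.1% of all tested genes. Of the 59, 11 passed and were highest in number 2, against 10.5% of all tested genes. Another 8 of the 59 passed and were lowest in number 2, against 20.4% of all tested genes. Psrc1, a spindle protein, and Eda2r, a receptor of the tumour necrosis factor family, both chosen after their values were seen, were among those highest in number 2. Eda2r was at 0.55, 2.95 and 1.00 FPKM in KO 1 to KO 3 and at 0.30, 2.82 and 0.43 FPKM in WT 1 to WT 3. Pidd1, among the 8 lowest in number 2, was at 7.13, 1.85 and 3.94 FPKM in KO 1 to KO 3 and at 4.55, 1.46 and 1.73 FPKM in WT 1 to WT 3. Cdkn1a averaged 23.7, 13.3 and 9.83 FPKM over numbers 1, 2 and 3 (limma F test, adjusted p = 0.0112), and Mdm4 39.9, 24.2 and 23.8 FPKM (limma F test, adjusted p = 0.0192), both highest in number 1.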

How the data were processed

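The authors deposited a table of FPKM values with a column for each library. The submitters' processing notes name FastQC, Trimmomatic 0.39, STAR 2.7.0a, RSEM 1.2.31 and the build mm9. What each tool did, the annotation and the strand setting are not given there. RSEM estimates how reads divide among similar transcripts. Sequencing depth is not stated in the file and was not estimated here, so no interval or limit from counts is given.

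Groups came from the sample titles. The 11249 genes that reached 1 FPKM in 3 or more libraries were tested on log2(FPKM + 1) with limma 3.58.1 in R 4.3.3 (eBayes with a trend, two-sided, Benjamini-Hochberg adjustment, threshold 0.05). The script was tested on simulated data. Same-numbered KO and WT libraries deviated from their group means together (r = 0.81, 0.59 and 0.38 across genes for numbers 1, 2 and 3), so the numbers were taken to pair the libraries, and the fit with the number as a block is given where it matters. Named genes are the 10 genes, Txnip, Cdkn1a, Mdm4, the 3 of smallest p per list (none passed) and the 3 of closest pattern to each of the 2 genes of widest range. Marker genes, Ddx3y, Xist, Rpph1 and Rmrp describe the libraries, and Psrc1 and Eda2r were chosen after their values were seen. The genes and lists were chosen with earlier results of these data known. Alternatives changed the pseudocount, filter, scaling, trend and libraries.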

Additional observations from a re-analysis of the deposited data

How the results depend on the processing

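None of the 10 genes passed by genotype under any of the 18 alternatives run. The count of genes called over the whole table was 2. It became 1 with no filter on low values, ran from 1 to 3 with a single library left out, and was 36, 142 and 118 with the replicate block and pair 1, 2 or 3 left out. The replicate block with all pairs gave 3. With quantile normalization and the block, Trp53 was the 1 gene of the 10 with an unadjusted p under 0.05 (limma), against 600 of all 11249 tested genes. Rescaling to a common sum turned Ccng1 to 0.072 and Sesn1 to 0.094, and rescaling without Rpph1 and Rmrp turned them to 0.0075 and 0.032, while the median of all tested genes moved to 0.22 and 0.16. With a library or pair left out, differences ran from −1.13 to 0.17 for Trp53, −0.44 to 0.31 for Ccng1, −0.26 to 0.10 for Sesn1, −0.40 to 0.83 for Bbc3, −0.083 to 0.54 for Pmaip1, −0.18 to 1.04 for Trp53inp1 and −0.18 to 1.04 for Phlda3, each crossing 0. They stayed above 0 for Mdm2 (0.0064 without KO 2, to 0.32), Bax (0.12 to 0.24) and Zmat3 (0.076 without KO 1, to 0.46 without KO 2). Leaving out 1 library unbalances the replicate numbers, and leaving out a pair does not. With a pair left out and the block, Trp53 (−0.65, −0.29 and −0.37 without pairs 1, 2 and 3), Ccng1 and Sesn1 stayed below 0. Bbc3, Pmaip1 and Phlda3 (0.57, 0.37 and 0.46) stayed above 0, and Trp53inp1 was at −0.042 without pair 3. Of 108 medians of the 6 further lists under alternatives, 81 moved by less than the spread of the pair medians and 27 by more. The count of the 10 genes that differed between replicate numbers was 7. It became 0 with no filter, where 0.088% of all genes passed, and ran from 3 to 8 with libraries or numbers left out; the cause was not tested. With 3 libraries a group, the unblocked interval of Phlda3 spanned −1.05 to 1.98.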
